A study of Mus musculus with 36 samples.

Results

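The 9 genes described here encode enzymes by which the lung oxidizes and hydrolyzes foreign compounds: the cytochromes P450 Cyp2f2, Cyp2b10, Cyp2a5, Cyp4b1 and Cyp2s1, the flavin-containing monooxygenases Fmo1 and Fmo2, the P450 electron donor Por, and the microsomal epoxide hydrolase Ephx1. They were chosen by symbol, and all 9 were listed in both count tables, out of 18693 names in either table. RNA of lung tissue was sequenced from 36 wild-type C57BL/6 mice, 18 female and 18 male, in 6 groups that each held 3 females and 3 males. Mice received saline, crude oil, the dispersants Corexit 9500 or Corexit 9527, or oil with a dispersant (9500+oil, 9527+oil) by dosing on day 0, day 7 and day 13, with the lungs taken on day 14. The oil fractions were made from 1 part of oil in 20 parts of buffered saline and those of dispersant from 1 part in 40 parts, and 50 µL of a 10-fold dilution was given at each dose. According to the paper, only the separated saline phase was used for oil alone. The preparations with dispersant, the mixtures with oil included, did not readily separate and were used whole. Dosing was by oropharyngeal aspiration according to the paper and intratracheal according to the labels. Mice were bought at 7 weeks of age and kept for 1 week before the first dose. No group carried a transgene or a deletion, and the saline mice were handled on the same days as the treated mice. Each sex has its own count table, so that sex and anything else that set the tables apart cannot be told apart.

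Enzymes of this kind carry out the first phase of the metabolism of foreign compounds. A P450 in the membrane of the endoplasmic reticulum takes electrons from NADPH through Por and inserts an oxygen atom into its substrate. Flavin-containing monooxygenases oxidize nitrogen and sulfur atoms without Por, and Ephx1 opens the epoxides that P450s form, among them those of polycyclic aromatic hydrocarbons such as occur in crude oil. In the mouse airway these enzymes are known above all from club cells, the secretory cells of the bronchioles, where Cyp2f2 activates naphthalene. In whole lung RNA, fewer cells of a type and less RNA per cell cannot be told apart.

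The libraries held 17501716 to 30014986 counts, and the count of a member ran from 209 for Cyp2a5 to 91903 for Cyp2f2. Levels are given as counts in 1000000 counts of the TMM effective library size (CPM). For these levels TMM was run within each sex, so female and male CPM are not on a common scale. The 10 alveolar type 2 cell markers and the 15 club cell markers were all listed in both tables, and none had a median of 0. In 4 female libraries (saline mouse 3, oil mouse 6, 9527 mouse 11 and 9500+oil mouse 14), 20.7 to 45.1% of the counts fell on mitochondrial genes. The share was 6.16 to 11.3% in the other 14 female and 5.27 to 7.68% in the 18 male libraries. Members differed in these 4 libraries, as given below, and female values include them unless stated otherwise.

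Per kilobase of the longest coding transcript, Cyp2f2 had the highest level of the 9 genes in saline mice. It reached 1722 ± 60.0 CPM per kb (SD, n = 3) in males and 1128 ± 349 in females. In male saline mice Cyp4b1 (303 ± 24.3 CPM per kb) and Fmo2 (273 ± 37.2) came next and overlapped. They were followed by Fmo1 (205 ± 18.5), Por (169 ± 11.4), Ephx1 (137 ± 9.20), Cyp2b10 (128 ± 24.0), Cyp2s1 (74.5 ± 5.20) and Cyp2a5 (22.7 ± 1.77). Among these male neighbours only Cyp4b1 and Fmo2, and Ephx1 and Cyp2b10, had overlapping ranges. In female saline mice Fmo1 stood second at 461 ± 350 CPM per kb, with mouse 3 at 864, and every neighbour overlapped except Cyp2b10 over Cyp2s1 and Cyp2s1 over Cyp2a5. Mouse 3 has the library with 45.1% mitochondrial counts. Over the other 2 mice Fmo1 was at 260 CPM per kb, Cyp4b1 at 243 and Fmo2 at 219.7, each overlapping with the next, below Cyp2f2 at 1326.

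**Figure D1:**
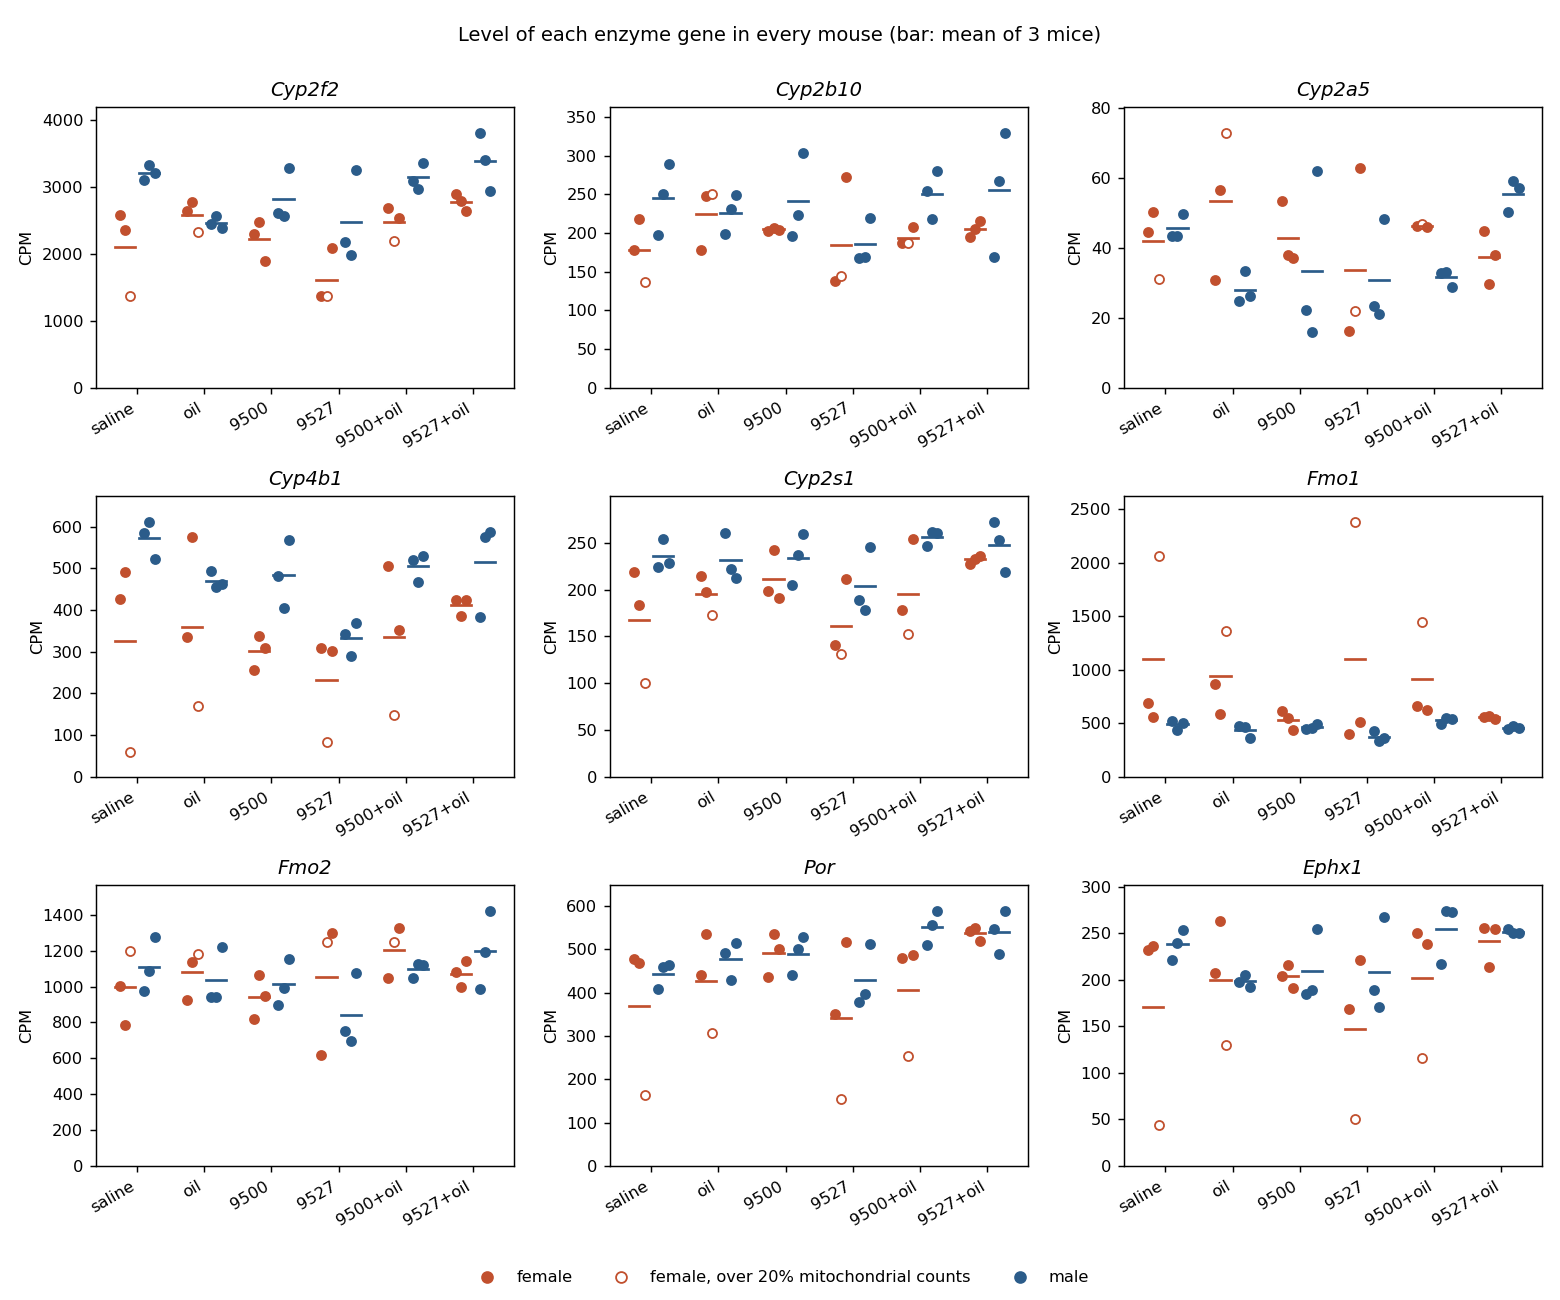
Level of each of the 9 genes in CPM (vertical axis, from 0) in every mouse of the 6 groups (horizontal axis), with female mice in orange, male mice in blue and a bar at the mean of 3 mice; open circles are the 4 female libraries with over 20% mitochondrial counts. Male 9527 mice reach at most 368 CPM of Cyp4b1 against at least 522 CPM in male saline mice, and the open circles are the lowest female values of Cyp4b1, Por and Ephx1 and the highest of Fmo1.

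The 6 groups of a sex were put in order of their mean. In females 1 of 45 neighbouring pairs had ranges that did not overlap, which was Fmo1 in 9500+oil over 9527+oil. In males 2 of 45 did, namely Cyp2a5 in 9527+oil over saline and Cyp4b1 in oil over 9527. Over all genes tested, 2.25% of such pairs did not overlap in females and 2.18% in males. The 9527 group had the lowest male mean of Cyp2b10, Cyp4b1, Cyp2s1, Fmo1, Fmo2 and Por, and the oil group that of Cyp2f2, Cyp2a5 and Ephx1.

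Cyp2s1 (GRCm38 chr7:25802475-25816913, minus strand), Cyp2b10 (chr7:25897620-25926624, plus), Cyp2a5 (chr7:26835305-26843548, plus) and Cyp2f2 (chr7:27119909-27133660, plus) lie within 1331 kb of chromosome 7. Of the 12 Cyp2 genes in that span, 9 were listed. The 5 that are not members had at most 24 counts in a library, among them Cyp2a4, a near-identical copy of Cyp2a5, with at most 10. Reads of such copies could have been divided by the counting, so values of Cyp2a5 and Cyp2b10 are uncertain to that extent. Fmo1 (chr1:162829561-162866610) and Fmo2 (chr1:162874317-162898726) are neighbours on the minus strand of chromosome 1, 7.71 kb apart. Ephx1 (chr1:180976210-181020904, minus), Cyp4b1 (chr4:115624725-115647723, minus) and Por (chr5:135670033-135735326, plus) lie apart from the others.

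The promoters of Cyp4b1, Cyp2a5 and Cyp2f2 are shown because these P450s had the smallest p values against saline among the members. Each is the 250 bases before the start of the gene in RefSeq (build GRCm38.p6), from chr4:115647722-115647971 on the minus strand, chr7:26835089-26835338 on the plus strand and chr7:27119705-27119954 on the plus strand. Capitals mark a match to GCGTG (the core recognized by the aryl hydrocarbon receptor with Arnt), to CCAAT (the CCAAT box), to TATAA (the TATA box) or to TGTTTNC (the core bound by forkhead factors), on either strand.
Cyp4b1: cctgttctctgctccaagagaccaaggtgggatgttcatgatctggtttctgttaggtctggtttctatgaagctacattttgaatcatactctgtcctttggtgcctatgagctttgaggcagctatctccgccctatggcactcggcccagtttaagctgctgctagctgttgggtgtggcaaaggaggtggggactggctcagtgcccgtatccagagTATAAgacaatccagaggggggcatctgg
Cyp2a5: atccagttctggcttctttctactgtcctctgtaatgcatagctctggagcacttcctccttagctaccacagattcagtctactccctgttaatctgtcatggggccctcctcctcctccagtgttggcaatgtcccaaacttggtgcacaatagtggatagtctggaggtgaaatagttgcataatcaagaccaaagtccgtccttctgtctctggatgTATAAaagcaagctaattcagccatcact
Cyp2f2: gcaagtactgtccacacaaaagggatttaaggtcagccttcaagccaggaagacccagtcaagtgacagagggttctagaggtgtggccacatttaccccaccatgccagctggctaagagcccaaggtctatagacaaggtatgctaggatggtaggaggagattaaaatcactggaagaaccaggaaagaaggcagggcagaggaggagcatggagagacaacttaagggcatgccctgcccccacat
Cyp4b1 and Cyp2a5 each held 1 TATAA, at position -29 in both, and Cyp2f2 held none of the 4 motifs. TATAA on either strand occurred in 22.8% of the 32851 promoters of the same length. GCGTG, present in 28.2% of all, had 2 matches in Cyp2b10 and 3 in Por and in no other of the members' promoters read. CCAAT was present in 33.8% and TGTTTNC in 17.8% of all promoters. Ephx1 held 1 match to each of these, besides TATAA on both strands at overlapping positions, and the second of the 2 Fmo2 starts held 1 TGTTTNC. Fmo1 was not read.

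No member passed an adjusted p of 0.05 (edgeR quasi-likelihood F-test, Benjamini-Hochberg over all genes tested) in any of the 5 treatments against saline, in either sex or over both. In female mice 0 of 45 pairs of member and treatment passed, and 0 had an unadjusted p under 0.05. Neither DESeq2 nor limma voom called a pair there. The female background was also low, with 0% of all genes passing the adjusted threshold in each treatment. At the unadjusted threshold it was 0.108% for oil, 0.364% for 9500, 0.267% for 9527, 0.155% for 9500+oil and 1.1% for 9527+oil. Without the 4 libraries of high mitochondrial share, 2 of 45 pairs had an unadjusted p under 0.05, which were Cyp4b1 for 9500 and 9527, against 4.24% of all pairs of gene and treatment.

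In male mice 0 of 45 pairs passed, and 11 had an unadjusted p under 0.05. By edgeR, 0.00671% of all genes passed for oil, 0.00662% for 9500, 0.114% for 9527, 0% for 9500+oil and 0.00669% for 9527+oil. At the unadjusted threshold the background was 8.21% for oil, 6.35% for 9500, 13.7% for 9527, 9.22% for 9500+oil and 5.54% for 9527+oil. The 11 pairs were 4 of 9 members for oil, 0 for 9500, 3 for 9527, 2 for 9500+oil and 2 for 9527+oil. Those of oil and 9527 were all lower than saline, a direction that 2.45% of all genes took for oil and 5.78% for 9527. DESeq2 called 4 pairs, which were Cyp2f2 and Cyp2a5 for oil, Cyp4b1 for 9527 and Cyp2a5 for 9500+oil. Its share of all genes was 1.31% for oil, 0.324% for 9500, 3.98% for 9527, 0.343% for 9500+oil and 0.167% for 9527+oil. Voom with sample quality weights called 1 pair, Cyp4b1 for 9527, where it called 0.744% of all genes.

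Over both sexes, with sex as a covariate, 0 of 45 pairs passed and 0 had an unadjusted p under 0.05. DESeq2 called 0 pairs and voom 3, which were Cyp2f2, Cyp2a5 and Cyp4b1 for 9527, where voom called 5.37% of all genes. By edgeR 0.0331% of all genes passed for 9527 and 0% for each other treatment. The unadjusted background was 0.435% for oil, 2.26% for 9500, 2.87% for 9527, 0.391% for 9500+oil and 2.94% for 9527+oil. Without the 4 libraries 8 of 45 pairs had an unadjusted p under 0.05, against 8.31% of all pairs of gene and treatment. They were Cyp2a5 for oil, Cyp4b1 for 9500, Cyp2f2, Cyp4b1 and Fmo1 for 9527, Cyp2a5 and Por for 9500+oil and Por for 9527+oil. In the test of any difference among the 6 groups, 0 of 9 members passed in females, where 0.0129% of genes did, and 0 of 9 in males, where 0.135% did. At the unadjusted threshold these were 0 members in females (background 1.35%) and Cyp2f2, Cyp4b1, Fmo1 and Por in males (background 10.4%). The male count of 4 was 2 without 9527 mouse 10 (background 8.27%) or 9527+oil mouse 16 (12.4%) and 8 without 9527 mouse 12 (12.7%). DESeq2 called 2 members in males, Cyp4b1 and Fmo1, where it called 3.94% of all genes, and none in females.

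**Figure D2:**
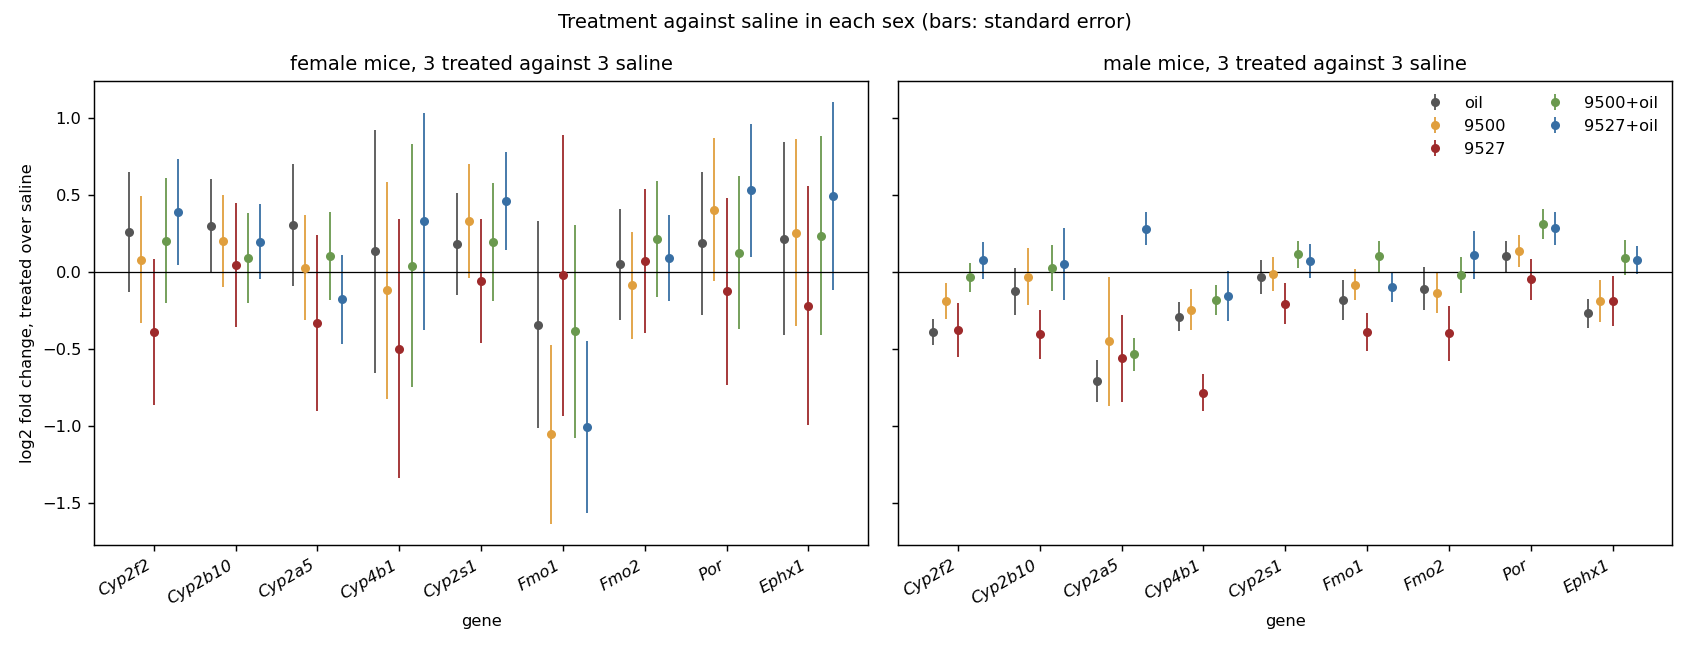
Log2 fold change of treated over saline mice (vertical axis) for each gene (horizontal axis) and treatment (color) in female (left) and male (right) mice, with bars of 1 standard error, from 3 treated and 3 saline mice each. In males all 9 genes lie below 0 for 9527, from -0.78 to -0.05, and standard errors are mostly wider in females.

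Cyp4b1, a P450 with high levels in lung that activates the toxin ipomeanol, gave the smallest p of all pairs, in male mice treated with 9527. Its levels were 342, 289 and 368 CPM in the 9527 mice and 586, 612 and 522 CPM in the saline mice. All 3 treated mice were below all 3 saline mice, which 20.1% of all genes showed in 1 direction or the other. The log2 fold change was -0.78 (SE 0.12), with an unadjusted p of 0.000128 and an adjusted p of 0.0558. The adjusted p was on the other side of 0.05 by DESeq2 (1.80e-07), voom (0.0313), without a filter (0.0459), with at least 10 counts in every mouse (0.0395), with offsets for GC content (0.0449) and with all 6 groups in 1 fit (0.0172). Beside the shares given above for DESeq2 and voom, 0.385% of all genes passed without a filter, 0.635% with at least 10 counts, 0.436% with the GC offsets and 1.83% in the fit of all groups. Leaving out 1 mouse at a time gave log2 fold changes of -0.85 to -0.69. The adjusted p stayed above 0.05 with DESeq2 size factors in edgeR. It also did so with any single mouse left out except 9527 mouse 12 (0.0228).

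In female 9527 mice Cyp4b1 stood at 308, 84.2 and 302 CPM and in female saline mice at 427, 492 and 60.5 CPM. The value of 84.2 and that of 60.5 CPM belong to the libraries with high mitochondrial shares. Without the 4 such libraries, 2 female 9527 mice and 2 saline mice remained, with a log2 fold change of -0.59 (SE 0.18) and an adjusted p of 0.851. Over both sexes without them Cyp4b1 fell, with a log2 fold change of -0.70 (SE 0.09) and an adjusted p of 0.00471, and was the 1 member to pass, while 2.25% of all genes did. With all 12 mice its log2 fold change was -0.64, with an adjusted p of 0.9999, and 0.0331% of all genes passed. The sex by treatment interaction for 9527 had 0 members at an unadjusted p under 0.05, so that no difference between the sexes was shown.

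Other members in male 9527 mice lay in the same direction. All 9 had a log2 fold change below 0, with a median of -0.39 against -0.01 for all genes tested. Fmo1 stood at 425, 331 and 367 CPM against 526, 441 and 505 CPM in saline, without overlap, with a log2 fold change of -0.39 (SE 0.12), an unadjusted p of 0.0119 and an adjusted p of 0.215. Cyp2b10 stood at 168, 169.7 and 219 CPM against 198, 250.2 and 289.9 CPM, with overlap, and a log2 fold change of -0.40 (SE 0.16, unadjusted p 0.0348, adjusted p 0.315), which was -0.26 without saline mouse 3. Male 9527 mouse 12 was above mice 10 and 11 in 8 of the 9 genes, all but Fmo1. Its Cyp2f2 was 3249 CPM against 2186 and 1985, and its Cyp2a5 48.4 CPM against 23.3 and 21.2. Without mouse 12, 3 members passed, which were Cyp2f2 at -0.61 (adjusted p 0.0376), Cyp2a5 at -1.02 (0.0133) and Cyp4b1 at -0.85 (0.0228), and 1.39% of all genes did. Mouse 12 was singled out after its values were seen, so these calls are no independent support. With any other treated or saline mouse left out, no member passed for 9527 in males.

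In the same male 9527 mice 1 of 118 cell type markers tested passed an adjusted p of 0.05, the macrophage marker Cd68, which was higher. At an unadjusted p under 0.05, 33 markers were lower and 17 higher, beside 5.78% of all genes lower and 7.96% higher. Of the 10 endothelial markers 8 were lower, and their summed level was 3905 to 3943 CPM against 4577 to 5455 CPM in saline. Of the 5 erythroid markers 5 were lower, with a sum of 2720 to 6784 against 7527 to 12552 CPM. Of the 12 ciliated cell markers 5 were lower, with a sum of 1638 to 1903 against 1983 to 2196 CPM. The summed levels of these 3 lists lay below saline in every 9527 mouse, as did those of the next 3. Of the 15 club cell markers 3 were lower and 1 higher, with a sum of 16403 to 20628 against 21279 to 27198 CPM. Of the 5 mesothelial markers 3 were lower and 1 higher, with a sum of 187 to 199.6 against 209.7 to 242 CPM. Neutrophil markers, of which 6 of 7 were tested and 0 moved, had a sum of 116 to 269 against 275 to 307 CPM. The other lists overlapped with saline. Of 11 macrophage markers listed 7 were higher, with a sum of 6257 to 8926 against 6419 to 6712 CPM, and of 10 alveolar type 2 markers 4 were higher, with 20060 to 28112 against 21926 to 22090 CPM. Of 7 cardiac muscle markers 4 were lower, with 222 to 389.6 against 340 to 533 CPM. Of 8 alveolar type 1 markers 2 were lower and 1 higher, of 12 fibroblast and smooth muscle markers 1 and 3, of 6 adipocyte markers tested 2 and 0, and of 11 lymphocyte markers none in either direction. The adipocyte marker Ucp1 had a median of 0 over the male mice and no other marker did. The part of these cell types in the levels of the members was not tested.

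Cyp2f2, the naphthalene-activating P450 of club cells, had levels of 2441, 2571 and 2386 CPM in male oil mice and 3101, 3324 and 3217 CPM in male saline mice. The groups did not overlap, as for 12.8% of all genes, and the log2 fold change was -0.39 (SE 0.08, unadjusted p 0.00161, adjusted p 0.275). Cyp2a5, a coumarin hydroxylase that also oxidizes nicotine, had 24.7, 33.3 and 26.3 CPM against 43.5, 43.6 and 49.7 CPM. It did not overlap either, at -0.70 (SE 0.14, unadjusted p 0.000743, adjusted p 0.236). By DESeq2 both passed, with an adjusted p of 0.00297 for Cyp2f2 and 0.00202 for Cyp2a5, as 1.31% of all genes did.

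Cyp4b1 and Ephx1 were the other members whose male oil mice all lay below the saline mice. Cyp4b1 had 493, 455 and 464 CPM, at -0.29 (SE 0.09, adjusted p 0.450). Ephx1 had 198, 205 and 193 CPM against 222, 240.04 and 253 CPM, at -0.27 (SE 0.09, adjusted p 0.490). Beside them, 4 of 15 club cell markers were lower and 1 higher in male oil mice, with a sum of 19697 to 22933 CPM, and 6 of 7 cardiac muscle markers were lower, with a sum of 286 to 317 against 340 to 533 CPM. Of 5 mesothelial markers 1 was lower, with a sum of 188 to 198 against 209.7 to 242 CPM. Of 7 neutrophil markers 5 were higher, with a sum of 377 to 1072 against 275 to 307 CPM, and of 11 macrophage markers listed 7 were higher, with 7058 to 8969 against 6419 to 6712 CPM. The club cell sum overlapped with saline, as did those of the cell types not named here, and over all marker lists 16 of 119 markers were lower and 18 higher at an unadjusted p under 0.05, beside 2.45% and 5.75% of all genes, while none passed after adjustment. Their part in the levels of the members was not tested.

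In female oil mice Cyp2f2 and Cyp2a5 overlapped with saline. Cyp2f2 stood at 2643, 2776 and 2331 CPM against 2589, 2358 and 1365 CPM, and Cyp2a5 at 30.9, 56.6 and 73.1 against 44.5, 50.3 and 31.2 CPM. The last mouse of each group, oil mouse 6 and saline mouse 3, has a library of high mitochondrial share. With all mice the log2 fold change was 0.26 (SE 0.39) for Cyp2f2, 0.31 (SE 0.39) for Cyp2a5, 0.14 (SE 0.79) for Cyp4b1 and 0.22 (SE 0.63) for Ephx1. Without these libraries it was 0.14 (SE 0.18) for Cyp2f2 and 0.01 (SE 0.21) for Ephx1, and it turned to -0.11 (SE 0.30) for Cyp2a5 and to -0.01 (SE 0.28) for Cyp4b1. In female oil mice the club cell sum was 21489 to 27212 against 10027 to 21151 CPM in saline and the neutrophil sum 106 to 141 against 143 to 199.5 CPM, both apart from saline, and their part was not tested. The sex by treatment interaction of Cyp2a5 for oil was -1.05 (SE 0.43, unadjusted p 0.0347; -0.23 by voom) and that for 9500+oil was -0.68 (SE 0.30, unadjusted p 0.0439), where negative values mean a lower ratio in males. Neither passed, with an adjusted p of 1.00 for each, and no member passed in any of the 5 interaction tests by edgeR, DESeq2 or voom. Without the libraries of high mitochondrial share Cyp2a5 was at -0.58 for oil (SE 0.32, unadjusted p 0.102) and at -0.50 for 9500+oil (SE 0.16, unadjusted p 0.00998). In the same fits Cyp2f2 was at -0.51 for oil (SE 0.14, unadjusted p 0.00513) and Cyp2a5 at 0.62 for 9527+oil (SE 0.21, unadjusted p 0.0129). None passed, and 5.98% of all genes had an unadjusted p under 0.05 for oil, 2.63% for 9500+oil and 6.73% for 9527+oil without those libraries. With all mice that background was 1.65% for oil, 0.726% for 9500, 0.352% for 9527, 0.509% for 9500+oil and 2.39% for 9527+oil, and 0% of genes passed after adjustment in each.

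In the male mixtures Cyp2a5 took opposite directions. It stood at 32.8, 33.2 and 28.7 CPM with 9500+oil, all below saline, at -0.53 (SE 0.11, unadjusted p 0.00072, adjusted p 0.506). DESeq2 called this pair (adjusted p 0.0265), as it did 0.343% of all genes. With 9527+oil it stood at 50.3, 59.1 and 57.2 CPM, all above saline, at 0.28 (SE 0.11, unadjusted p 0.0285, adjusted p 0.885). Both comparisons share the 3 saline mice. Por, which passes electrons to every microsomal P450, had 511, 557 and 589 CPM with 9500+oil and 547, 489 and 587 CPM with 9527+oil, against 409, 460.2 and 463 CPM in saline. Its log2 fold change was 0.31 (SE 0.10, adjusted p 0.506) with 9500+oil and 0.28 (SE 0.11, adjusted p 0.885) with 9527+oil. Groups that do not overlap were found for 15.4% of all genes with 9500+oil and 11.8% with 9527+oil. In the 9500+oil mice the sum of the mesothelial markers was 189 to 205 CPM, below the 209.7 to 242 CPM of saline, and 3 of 15 club cell markers were lower and 1 higher. In the 9527+oil mice 6 of 7 neutrophil markers were higher, with a sum of 266 to 1368 against 275 to 307 CPM, and 5 of 11 macrophage markers were higher, with 5536 to 7907 against 6419 to 6712 CPM. Their part in these levels was not tested.

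In female 9527+oil mice Cyp2f2 (2901, 2798 and 2644 CPM), Cyp2s1 (228, 233 and 236 CPM) and Por (543, 549 and 519 CPM) were above all 3 saline mice, as were or were below 17.9% of all genes. Cyp2s1 is a P450 of surface epithelia. In saline it stood at 219, 183 and 100.5 CPM and Por at 478, 469 and 163 CPM, the lowest value of each being that of mouse 3. Log2 fold changes of the 9 genes in this comparison ran from -1.01 for Fmo1 to 0.53 for Por, and the smallest unadjusted p was 0.122. Without mouse 3 they ran from -0.34 for Cyp2a5 to 0.27 for Fmo2, with Fmo1 at -0.15 and Por at 0.18, and Cyp4b1 turned from 0.33 to -0.16. The median of the 9 genes was then 0.05 in place of 0.33. The endothelial marker sum of these mice, 4134 to 4580 CPM, lay above the 2455 to 4115 CPM of saline as well, with 0 of 10 markers at an unadjusted p under 0.05, and its part was not tested.

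Fmo2, the flavin-containing monooxygenase most typical of lung in mammals, had no pair with an unadjusted p under 0.05 against saline. Its group means ran from 842 ± 204 CPM (SD, n = 3) in 9527 to 1199 ± 219 CPM in 9527+oil in males and from 943 ± 121 CPM in 9500 to 1206 ± 145 CPM in 9500+oil in females. Cyp2s1 likewise had none, with male means from 204 ± 36.1 CPM in 9527 to 256 ± 8.42 CPM in 9500+oil.

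The oil mixtures were also compared with their dispersant alone over both sexes, which uses no saline mouse. With 9527+oil against 9527, 8 of 9 members had a log2 fold change above 0, with a median of 0.50 against 0.01 for all genes tested. Cyp2f2 stood at 2644 to 2901 CPM in female and 2935 to 3815 CPM in male 9527+oil mice against 1367 to 2091 and 1985 to 3249 CPM with 9527. Its log2 fold change was 0.63 (SE 0.18, unadjusted p 0.00518, adjusted p 0.194), and 0.38 with offsets for GC content. Cyp4b1 was at 0.74 (SE 0.27, adjusted p 0.282) and Cyp2s1 at 0.41 (SE 0.15, adjusted p 0.282), the latter turning to -0.12 with offsets for GC content. No member passed by edgeR, 3 had an unadjusted p under 0.05 (background 14.2%), and 0.579% of all genes passed by edgeR. DESeq2 called 1 member and 4.12% of all genes, and voom 7 members and 10.4% of all genes.

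Cell type markers differed in the same comparison, though 1 alone, Retnla of the club cell list, which was lower, passed an adjusted p of 0.05. The marker counts that follow are at an unadjusted p under 0.05, which 14.2% of all genes had in either direction. Of 10 endothelial markers 3 were higher with 9527+oil at an unadjusted p under 0.05, with a sum of 4134 to 4580 against 2722 to 3321 CPM in females and of 4304 to 4837 against 3905 to 3943 CPM in males. Of 5 mesothelial markers 2 were higher, with 174 to 178 against 90.3 to 157 CPM in females and 214 to 219 against 187 to 199.6 CPM in males. These are the lists whose sums lay apart in both sexes. Of 15 club cell markers 4 were higher and 1 lower, and their sum of 21409 to 25545 CPM in male 9527+oil mice lay above the 16403 to 20628 CPM of 9527, while in females 13474 to 16933 CPM overlapped with 12196 to 17400 CPM. Ciliated cell markers, 1 of 12 higher, lay apart in males alone, with 1938 to 2215 against 1638 to 1903 CPM. Alveolar type 1 (1 of 8 higher and 1 lower), neutrophil (4 of 7 higher) and cardiac muscle markers (2 of 7 higher) had sums that lay apart in females alone, all above 9527. Their part in the levels of the members was not tested.

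Without female 9527 mouse 11, whose library had 38.4% mitochondrial counts, all 9 members were above 0, with a median of 0.33, and 2 passed. These were Cyp2f2 at 0.55 (SE 0.15, adjusted p 0.0448) and Cyp4b1 at 0.54 (SE 0.12, adjusted p 0.0193), and 6.82% of all genes passed. At an unadjusted p under 0.05 there were 6 members in place of 3, and 25.8% of all genes in place of 14.2%. Fmo1 turned from -0.34 to 0.29 (SE 0.09, adjusted p 0.0614). Within a sex no member passed, with or without that mouse. In males Cyp4b1 was at 0.62 (SE 0.17, adjusted p 0.326) and Cyp2f2 at 0.45 (SE 0.20, adjusted p 0.432), and in all 6 females Cyp4b1 was at 0.84 (SE 0.49, adjusted p 0.555) and Cyp2f2 at 0.79 (SE 0.31, adjusted p 0.555). In the 5 females without mouse 11 Cyp4b1 was at 0.44 (SE 0.13, adjusted p 0.140) and Cyp2f2 at 0.69 (SE 0.21, adjusted p 0.147), where 0.757% of all genes passed, and Fmo1 turned from -0.99 to 0.31.

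**Figure D3:**
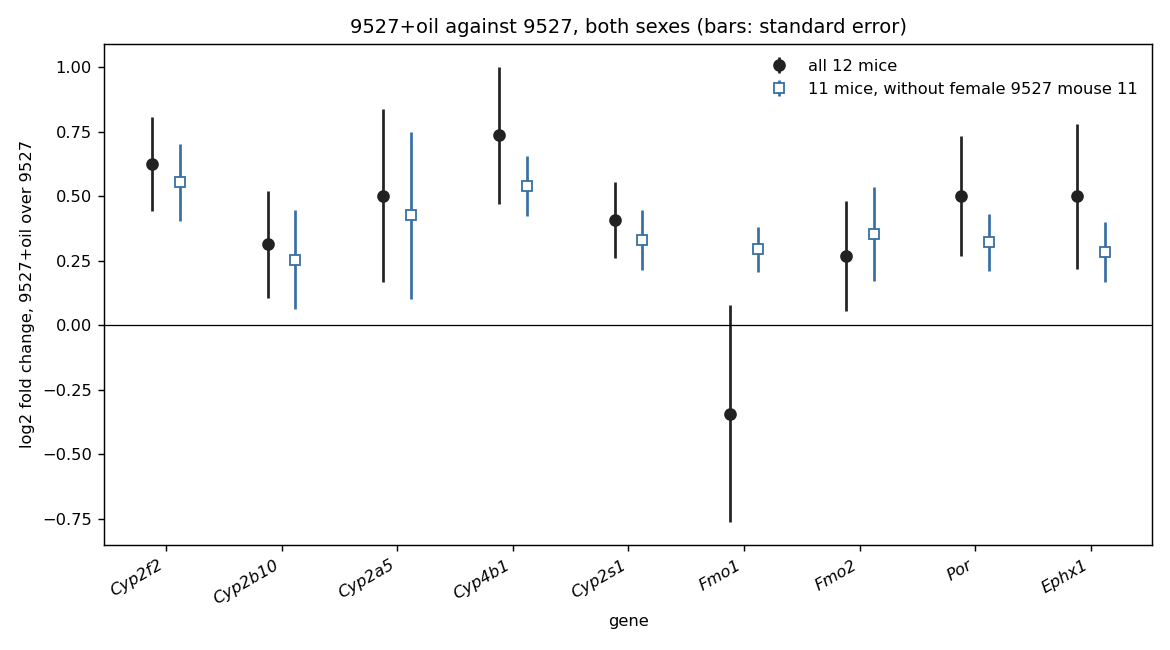
Log2 fold change of 9527+oil over 9527 mice of both sexes (vertical axis) for each gene (horizontal axis), with bars of 1 standard error, for all 12 mice (filled circles) and for 11 mice without female 9527 mouse 11 (open squares). Without that mouse all 9 genes lie above 0 and Fmo1 moves from -0.34 to 0.29.

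With 9500+oil against 9500, 0 members passed by edgeR and 1 had an unadjusted p under 0.05, where 0% of all genes passed and 1.95% had such a p. This was Fmo1, at 0.47 (SE 0.21, unadjusted p 0.0442, adjusted p 0.999). Fmo1 stood at 663, 1443 and 624 CPM in female 9500+oil mice against 619, 551 and 435 CPM with 9500, and the value of 1443 belongs to mouse 14 of high mitochondrial share. In males Fmo1 stood at 497, 548 and 536 CPM against 448, 457 and 489 CPM. Without that mouse Fmo1 was at 0.22 (SE 0.10, unadjusted p 0.0495, adjusted p 0.999) and Ephx1 at 0.27 (SE 0.11, unadjusted p 0.0288, adjusted p 0.999), where 3.28% of all genes had such a p. In male 9500+oil mice the endothelial sum of 4850 to 5118 CPM lay above the 4230 to 4787 CPM of 9500, while the sums of fibroblast and smooth muscle markers (5738 to 6093 against 6173 to 6309.9 CPM) and mesothelial markers (189 to 205 against 213 to 219.7 CPM) lay below. No such sum lay apart in females, and the part of these cell types was not tested.

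Between the sexes Fmo1 and Fmo2 were lower in males in the fit over all 36 mice, and 39.2% of all genes passed. Fmo1, which acts on amines and sulfides and is best known from liver and kidney, had a log2 fold change of -1.07 (SE 0.20, adjusted p 0.000174) in males over females. Its level was 1366 to 2385 CPM in the 4 libraries of high mitochondrial share, 399 to 864 CPM in the other 14 females and 331 to 548 CPM in the 18 males. With library sizes not scaled by TMM these levels were 1012 to 1278, 475 to 979 and 337 to 545 CPM. Without the 4 libraries Fmo1 was at -0.55 (SE 0.07, adjusted p 1.89e-07). Fmo2 was at -0.24 (SE 0.09, adjusted p 0.0407) with all mice and at -0.15 (adjusted p 0.174) without the 4 libraries. It passed in none of the 7 alternatives that did not leave out a single mouse, and with offsets for GC content it turned to 0.075. Cyp2a5 was at -0.43 (SE 0.18, unadjusted p 0.0232, adjusted p 0.0570). Cell type markers differed between the sexes too, at an adjusted p under 0.05. In males 6 of 7 neutrophil and 3 of 5 erythroid markers were higher, and 7 of 12 ciliated cell and 5 of 11 lymphocyte markers were lower. Other marker lists are not given here. These counts include the 4 libraries of high mitochondrial share, and 39.2% of all genes passed in either direction. The part of these cell types was not tested.

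Cyp4b1, Por and Ephx1 were below every other female library in the same 4. Cyp4b1 stood at 60.5 to 169 CPM there against 256 to 576 CPM in the other 14 females, Por at 155 to 307 against 350.3 to 549 CPM and Ephx1 at 43.7 to 130 against 169 to 264 CPM. Without these 4 libraries, Fmo1, Por (-0.20, SE 0.06, adjusted p 0.00614) and Ephx1 (-0.20, SE 0.06, adjusted p 0.0139) were lower in males, and 40.7% of all genes passed. With all mice Por was at -0.02 and Ephx1 at 0.02, and with offsets for GC content Por was at -0.57 (adjusted p 0.000122). Cyp2s1 turned from 0.07 to -0.50 (SE 0.14, adjusted p 0.00693) with these offsets, under which 3 members, Fmo1, Por and Cyp2s1, and 31.8% of all genes passed.

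**Figure D4:**
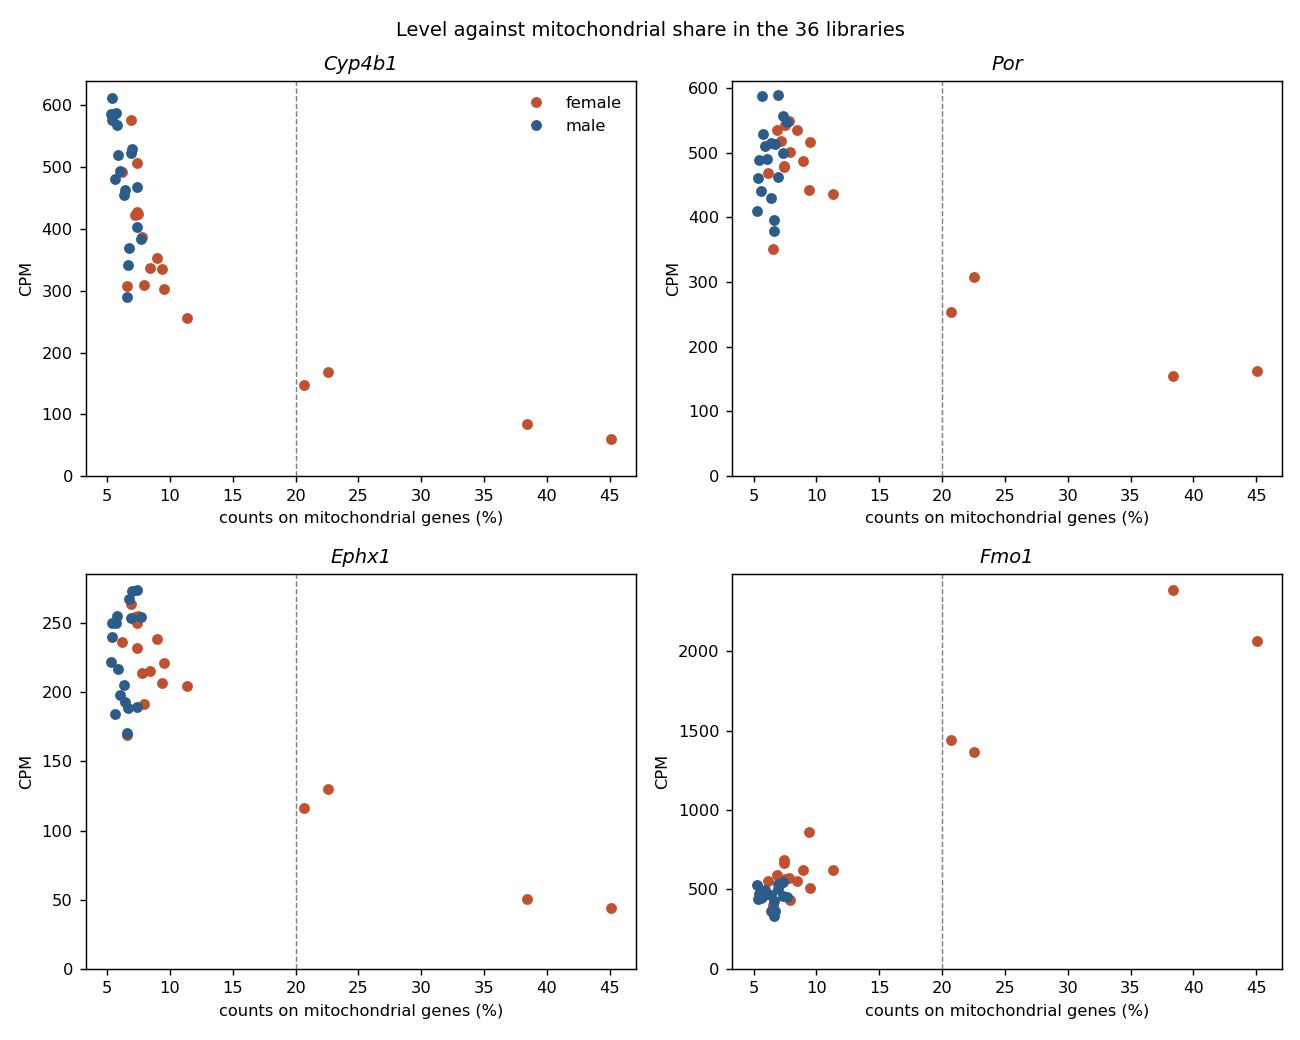
Level in CPM, scaled within each sex (vertical axis), against the share of counts on mitochondrial genes in percent (horizontal axis) in the 36 libraries, female in orange and male in blue, with a dashed line at 20%. The 4 libraries right of the line have the lowest values of Cyp4b1, Por and Ephx1, at most 169, 307 and 130 CPM, and the highest of Fmo1, at least 1366 CPM.

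Other genes of the same metabolism did not pass either. In a comparison with saline 51 to 54 other phase I enzymes, 32 to 34 conjugation enzymes, 7 efflux transporters and 8 to 9 nuclear receptors and partners were tested, and 0 passed in any treatment, in females, males or both. The lists held 60, 42, 8 and 11 genes, the rest being too low or not listed. They share genes with the marker lists, so that the sums of both are not independent. Aldh1a1 and Cbr2 (phase I) and Gsta3 and Sult1d1 (conjugation) are also club cell markers. Inmt (conjugation) is also a fibroblast and smooth muscle marker. At an unadjusted p under 0.05, over the 5 male comparisons, other phase I enzymes had 16 higher and 16 lower of 267 pairs tested and conjugation enzymes 7 higher and 16 lower of 165. Transporters had 3 higher and 4 lower of 35 and receptors none of 43. Over all genes 5.28% of pairs were higher and 3.32% lower in these comparisons. The summed level of conjugation enzymes was 2583 to 2839 CPM in male oil mice, below the 2981 to 3023 CPM of saline. That of efflux transporters was 401 to 414 CPM in oil and 406 to 414 CPM in 9500, both below the 415 to 430.4 CPM of saline. That of other phase I enzymes was 7910 to 8021 CPM in 9527+oil, above the 6775 to 7577 CPM of saline, and every other sum of these 4 lists overlapped with saline in both sexes. Over both sexes, Ces1g, a carboxylesterase, stood at 1.63 (SE 0.52, adjusted p 0.832) and Cyp1a1, the classic aryl hydrocarbon receptor target, at 2.44 (SE 0.80, adjusted p 0.832), both in 9527+oil. The sulfotransferases Sult1d1 (-0.78) and Sult2b1 (-1.25) had their smallest p in 9500, each with an adjusted p of 0.970. The transporter Abcc4 was at 0.49 in oil (adjusted p 1.00) and Abcb1a at -0.47 in 9500 (adjusted p 0.970). Among receptors, Nr3c1 was at -0.23 in 9527+oil (adjusted p 0.832) and Arnt at -0.45 in 9500 (adjusted p 0.970).

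The genes whose levels were most like each member were sought by the lower of the Pearson r of log2 CPM over the 18 female and over the 18 male mice, among 15259 genes. These values are descriptions, since mice of a table share treatments and the 4 libraries of high mitochondrial share. Cyp2f2 was most like Cyp2d22, another P450 (r = 0.90 in females and 0.87 in males), Gstm1 and Aox3. Ephx1 was most like the club cell carbonyl reductase Cbr2 (0.95 and 0.86), Cyp8b1 and Ctsf, and Cyp2a5 the secretoglobin Scgb3a2 (0.68 and 0.73), Tspan7 and Lrrc48. Cyp4b1 was most like Gsn (0.92 and 0.94), Fhod1 and Npr1, Por like Fgfr1 (0.91 and 0.90), Pear1 and Klhdc8b, and Cyp2s1 like Kndc1 (0.95 and 0.88), Ubxn10 and Ldlrad1. Cyp2b10 was most like Slc43a3 (0.79 and 0.88), Tsc22d1 and Dnaja4, Fmo1 like Scel (0.88 and 0.88), Tmeff2 and Smarca2, and Fmo2 like Lyve1 (0.77 and 0.80), Dst and Epas1. Over the 14 females of low mitochondrial share, r was 0.93 for Cyp2f2 with Cyp2d22 and 0.93 for Ephx1 with Cbr2, but 0.45 for Fmo1 with Scel and 0.10 for Ephx1 with Cyp8b1.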

How the data were processed

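RNA of mouse lung was sequenced after stranded mRNA library preparation with paired reads of 150 bases, and the authors deposited 1 table of estimated counts per sex. Per the labels and the paper, Salmon quantified reads against GRCm38, and tximport combined them. These expected counts were already whole numbers and were used as deposited. The tables held 18120 (female) and 18295 (male) rows. In each, 4 rows that share a name were left out and 24 rows named by a date were kept.

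Each treatment was compared with saline within a sex (3 against 3 mice) and over both sexes with sex as a covariate. Counts were filtered by filterByExpr, scaled by TMM and tested by edgeR's quasi-likelihood method (version 4.0.16, under R 4.3.3), with Benjamini-Hochberg adjustment over all genes tested. The 6 groups of a sex, the interaction of sex and treatment, mixtures against their dispersant and the sexes were tested likewise. Each library came from 1 mouse, so p-values measure the spread between mice. Alternatives were DESeq2 1.42.0, voom of limma 3.58.1 with sample quality weights, DESeq2 size factors, other filters, all groups in 1 fit, offsets for GC content, no sex term, leaving out libraries with over 20% mitochondrial counts, and leaving out each mouse. The fitting code was tested on simulated data. No pair of replicates agreed within sampling noise (smallest chi-square per gene 12.5).

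Lengths, positions and GC content came from GENCODE M21, with GC for 95.4% of genes. All members were described. Fold changes with errors were given for pairs with an unadjusted p under 0.05, at most 5 per comparison, plus pairs shown under an alternative, which were chosen after their values were seen. From each pathway list the 2 genes with the smallest p over both sexes were named, and the 3 genes most like each member. The members and lists were chosen with earlier results of these data known.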

Additional observations from a re-analysis of the deposited data

How the results depend on the processing

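Counts of members past the adjusted threshold changed with the tool and the libraries used. In males against saline, 0 of 45 pairs became 4 with DESeq2's Wald test and 1 each with voom, with no filter, with at least 10 counts in every mouse, with GC offsets and with all 6 groups in 1 fit, and leaving out 1 mouse gave 0 to 3. The 3 came without male 9527 mouse 12. Over both sexes, 0 became 3 with voom and 1 without the libraries over 20% mitochondrial, and leave-one-out gave 0 to 0. Any difference among male groups went from 0 to 2 with DESeq2 and to 0 to 1 with a mouse left out (1 without 9527 mouse 12 or 9527+oil mouse 16). For the mixtures, 0 became 1 with DESeq2, 7 with voom, 1 with all 6 groups in 1 fit and 2 without the high mitochondrial libraries, and 0 to 2 with a mouse left out (2 without female 9527 mouse 11). For the sexes, 2 became 1 with DESeq2 size factors, DESeq2, no filter or at least 10 counts, 4 with voom, 3 with GC offsets (Fmo1, Por and Cyp2s1), 3 without the high mitochondrial libraries (Fmo1, Por and Ephx1), and 1 to 3 with a mouse left out. With GC offsets Cyp2s1 in 9527+oil against 9527 turned to -0.12 and Fmo2 between the sexes to 0.075. The causes were not tested, except that fewer mice or genes enter some fits. Female counts against saline, female group differences and the interaction stayed at 0 under all alternatives, leave-one-out included. At an unadjusted p under 0.05, leaving out 1 mouse moved the count from 11 to between 8 and 16 in males, from 0 to at most 1 in females and at most 5 over both sexes (without female saline mouse 3), from 4 to between 2 and 8 among male groups, from 2 to between 0 (without any 1 male saline mouse) and 4 in the interaction, and from 4 to between 3 and 7 for the mixtures (7 without female 9527 mouse 11 or 12). For all genes in male 9527, 17 passed in the main analysis, 594 with DESeq2 and 111 with voom. No male library was over 20% mitochondrial, so that alternative has no male value. No paired analysis was possible because treated and saline mice of a sex share no mouse number. The 3 mice per group limit what could be detected.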
